A study of Mus musculus with 3 samples.

Results

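The heat shock and chaperone genes described here are 10 of the 31053 genes counted: Hspa1a, Hspa1b, Hsph1, Dnajb1, Hspb1, Hspb8, Hsp90aa1, Hspa8, Hspd1 and Hspe1. They were matched by symbol, and each symbol was found once. Levels were measured in single cells of adult mouse cochlear explants, organ cultures of the hearing part of the inner ear. All mice were 4 to 6 weeks old and carried rtTA, a transcription factor that binds DNA in the presence of doxycycline (Dox), with the Dox-driven transgenes tet-on-Myc and tet-on-NICD. NICD is the intracellular fragment of the Notch receptor, which switches on Notch target genes. The control cultures carried the same 3 alleles and received sterile water, and the other cultures received Dox at 2 µg/ml for 4 days. The samples were 1 control library and 2 Dox libraries (replicates 1 and 2), with 4 cultures pooled in each. The labels do not name the promoter that drives rtTA. Dox was never given to cultures that lack the transgenes, so drug and transgene cannot be told apart. The sensory epithelium was dissociated with trypsin for 15 min at 37 degrees before capture, a step that all 3 libraries shared.

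Chaperones bind unfolded proteins and help them fold, assemble or be degraded. Hspa1a and Hspa1b encode the stress-inducible cytosolic HSP70. Transcription of both is low in resting cells and is driven by the factor HSF1, which binds heat shock elements, after heat, handling or other protein stress. Hsph1 (HSP110) exchanges nucleotide on HSP70, and Dnajb1 (HSP40) hands it substrates and stimulates its ATPase. Hspb1 and Hspb8 are small heat shock proteins that hold unfolded proteins without using ATP. Hsp90aa1 is a cytosolic HSP90, and Hspa8 is the HSP70 that cells make at all times. Hspd1 (HSP60) and Hspe1 (HSP10) form the barrel and the lid of the chaperonin inside mitochondria. In the cochlea, supporting cells surround the hair cells, and HSP70 is best known there for its induction by heat, noise and ototoxic drugs.

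Members form 2 pairs of neighbours in the genome (GRCm38). Hspa1a (chromosome 17, 34969190 to 34972156) and Hspa1b (chromosome 17, 34956436 to 34959238) lie on the minus strand, 9951 bases apart. Hspd1 (chromosome 1, 55077835 to 55088243, minus strand) and Hspe1 (chromosome 1, 55088132 to 55091307, plus strand) point away from each other, and their annotated 5′ ends overlap by 112 bases. The other members stand alone: Hsph1 (chromosome 5, 149614287 to 149636376, minus strand), Dnajb1 (chromosome 8, 83608193 to 83612653, plus strand), Hspb1 (chromosome 5, 135887919 to 135889563, plus strand), Hspb8 (chromosome 5, 116408491 to 116422864, minus strand), Hsp90aa1 (chromosome 12, 110690605 to 110702728, minus strand) and Hspa8 (chromosome 9, 40800984 to 40810087, plus strand).

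The promoters of both pairs are shown because their members moved together. RefSeq promoter windows (GRCm38.p6) were matched for 8 of the 10 members, all except Hspa8 and Hsp90aa1. The first lines give the 250 bases before the start of Hspa1a (chr17:34972157-34972406, minus strand) and of Hspa1b (chr17:34959239-34959488, minus strand), with a pair of inverted heat shock element units in capitals. The third line gives 30 bases upstream of Hspe1 (chr1:55088053-55088082, plus strand), with a run of 4 such units in capitals. These bases also lie in the annotated 5′ untranslated exon of Hspd1. The last line gives 30 bases upstream of Hspd1 (chr1:55088306-55088335, minus strand), inside the 5′ exon of Hspe1, with an E-box, the motif that MYC and related factors bind, in capitals.
Hspa1a: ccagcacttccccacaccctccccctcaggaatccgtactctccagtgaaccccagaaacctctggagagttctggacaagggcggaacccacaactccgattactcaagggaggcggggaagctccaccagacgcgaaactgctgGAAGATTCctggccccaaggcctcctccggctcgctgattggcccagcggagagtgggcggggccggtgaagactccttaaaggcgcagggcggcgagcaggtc
Hspa1b: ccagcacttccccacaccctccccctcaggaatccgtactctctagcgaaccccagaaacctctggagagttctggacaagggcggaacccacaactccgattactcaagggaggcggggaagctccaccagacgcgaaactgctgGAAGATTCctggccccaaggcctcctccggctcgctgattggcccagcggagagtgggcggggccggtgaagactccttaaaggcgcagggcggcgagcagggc
Hspe1 and Hspd1: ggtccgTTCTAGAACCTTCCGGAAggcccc
Hspd1: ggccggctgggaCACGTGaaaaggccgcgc

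Hspa1a and Hspa1b differed at 3 of the 250 promoter positions. A pair of units (GAANNTTC or TTCNNGAA, each its own reverse complement) was found upstream of Hspa1a, Hspa1b, Hsph1, Hspb1, Hspd1 and Hspe1. It was present in 12.8% of all 32851 windows of 250 bases. A run of 3 units (GAANNTTCNNGAA or its reverse complement TTCNNGAANNTTC, which contain the pair) were present in 0.466% of windows, and among the members in the shared Hspd1 and Hspe1 region only. The E-box CACGTG, which reads the same on both strands, was present in 6.02% of windows and, among the members, upstream of 1 of 2 starts of Hspd1 and of 1 of 2 starts of Hsph1. These matches describe letters in a window and not bound factors. Over their whole transcripts, 58.8% of the 50-base words of Hspa1a occurred in Hspa1b, but none of those in the last 500 bases did. Reads from these 3′ libraries that start near the transcript end can therefore be placed. Reads that lie in shared words further inside cannot be assigned to 1 copy by their sequence.

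The libraries held 5436731 unique molecular identifiers (UMIs, each marking 1 captured RNA molecule) in the control, 20309102 in Dox replicate 1 and 33385927 in Dox replicate 2. Of 2395 barcodes, 1996 passed the cell filter, and 125 barcodes occurred in more than 1 library. In 193 entries such a barcode held 0.259% to 1.68% of the UMIs that it had in another library. These copies (22.0%, 6.45% and 7.22% of the passing barcodes of the control, Dox replicate 1 and Dox replicate 2) were left out, which kept 283, 595 and 925 cells with medians of 12829, 20441 and 29877 UMIs. Clustering without the 10 members gave 20 clusters, and 3 named classes had at least 20 cells in each library: supporting cell-like (23, 56 and 26 cells), glia-like (28, 39 and 50) and macrophage-like (23, 46 and 25). The transgene check held in supporting cell-like cells, where Notch1 was at 35.4 CPM (counts scaled to a total of 1000000) in the control and at 432 and 494 CPM with Dox (log2 difference 3.70, edgeR adjusted p = 4.14e-06). Myc was at 10.9, 38.5 and 63.8 CPM (2.15, edgeR adjusted p = 0.0499), a call at the threshold that rested on 4 control UMIs, 3 of them in 1 cell. In glia-like cells both were called as well, at 3.06 for Notch1 and 1.70 for Myc (edgeR adjusted p = 3.16e-10 and 0.00728). The check did not hold in macrophage-like cells. Notch1 was at 66.7, 176 and 162 CPM there (1.34, edgeR adjusted p = 0.458) and Myc at 52.8, 24.7 and 42.4 CPM (-0.66, edgeR adjusted p = 0.996). Malat1, a nuclear RNA, was scarce in 54 of the 105 supporting cell-like cells, against 4 of the 117 glia-like cells. Without cells of little Malat1 the class held 11, 26 and 14 cells.

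In supporting cell-like cells, Dox went with a higher level of both mitochondrial chaperonin genes and of Hspa8, while Hspa1a and Hspa1b were lower, the latter mostly through 1 control cell. Of the 10 members 4 rose and 2 fell (edgeR quasi-likelihood test, adjusted p of 0.05 or less). Among all 8918 genes tested, 9.63% were called, 6.32% higher and 3.31% lower. The members' median log2 difference was 1.38, beside 0.03 for all genes tested. Values below are TMM-scaled CPM for these tests.

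Hspd1 was at 169 CPM in the control and at 776 and 953 CPM in Dox replicates 1 and 2. Both Dox libraries lay far above the control, with a log2 difference of 2.35 (SE 0.25, edgeR adjusted p = 2.73e-05). Its partner Hspe1 rose as well, from 291 CPM to 1141 and 982 CPM (log2 difference 1.87, SE 0.23, edgeR adjusted p = 7.96e-05). The barrel and the lid of the mitochondrial chaperonin thus rose together. The UMIs came from many cells: Hspd1 was seen in 14 of 23 control cells (60.9%, 95% exact interval 38.5% to 80.3%) and in 45 of 56 and 23 of 26 Dox cells (80.4% and 88.5%). Median depth differed between these cells, at 6701, 9544 and 22704 UMIs. When every cell was thinned to 1000 UMIs, Hspd1 and Hspe1 were no longer called, at 1.47 and 1.23 (edgeR adjusted p = 0.149 and 0.23), while Hspa8 was (1.97, adjusted p = 0.0437). Only 468 genes were then left to test, of which 17.7% were called, 15.0% higher and 2.78% lower.

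Hspa8, the constitutive HSP70, was at 337 CPM in the control and at 1050 and 996 CPM with Dox, which gave a log2 difference of 1.60 (SE 0.22, edgeR adjusted p = 0.000229). It was called in all 13 alternatives tested. The other abundant cytosolic chaperone, Hsp90aa1, was at 822, 791 and 821 CPM and was not called (log2 difference -0.03, SE 0.19, edgeR adjusted p = 0.949). A single control cell held 127 of its 302 control UMIs. Dnajb1, the HSP70 co-chaperone, was at 24.5 CPM in the control and at 73.8 and 66.6 CPM with Dox (log2 difference 1.53, SE 0.44, edgeR adjusted p = 0.0406). That call rested on 9 control UMIs and held in 6 of 12 alternatives, with adjusted p between 0.0158 and 0.529. It was the member lost when the copied barcodes were kept (adjusted p = 0.0682) and when all shared barcodes were left out (0.529), and the other 5 were called both times.

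Hspa1a was at 193 CPM in the control and at 6.42 and 9.71 CPM with Dox, so both Dox libraries lay below it (log2 difference -4.67, SE 0.37, edgeR adjusted p = 1.40e-06). Hspa1b was at 166, 15.5 and 4.16 CPM (log2 difference -3.80, SE 0.43, edgeR adjusted p = 4.05e-05). These differences rest on 1 control cell, which held 61 of the 71 Hspa1a UMIs and 58 of the 61 Hspa1b UMIs of the class. That cell had 11690 UMIs, of which the 2 genes made up 1.02%. Without the richest cell of each library, an alternative chosen after seeing the data, Hspa1a was at 28.2, 4.89 and 7.63 CPM from 10, 9 and 5 UMIs. The log2 difference was then -2.25 (SE 0.73, edgeR adjusted p = 0.127), and Hspa1b fell under the filter on low counts. Only Hspa8, Hspd1 and Hspe1 were still called, beside 5.55% of genes called, 3.91% higher and 1.63% lower. The share of cells with an Hspa1a UMI was 17.4% in the control (4 of 23 cells) and 14.3% and 15.4% with Dox (8 of 56 and 4 of 26). In macrophage-like cells of about the same depth (medians of 7810, 9452 and 21818 UMIs) it was 4.35%, 0 of 46 and 4.00%.

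Hsph1, which works with the inducible HSP70, was at 57.1, 47.1 and 48.5 CPM (log2 difference -0.26, SE 0.37, edgeR adjusted p = 0.721). The small heat shock genes were at low levels in supporting cell-like cells. Hspb1 had 3, 19 and 25 UMIs (8.16, 10.2 and 34.7 CPM) and was not called. Hspb8 had 0 UMIs in the control, where 0 of 23 cells allows a share of up to 13.0%, and 20 and 10 UMIs with Dox. Its Dox level was at least 1.00-fold that of the control counted at a floor of 3 UMIs over the library, so no size can be given. Markers of the class itself were lower with Dox: the 17 supporting cell markers summed to 11324, 3529 and 4401 CPM, with 2, 1 and 0 of them at 0. The 14 hair cell markers summed to 1131, 270 and 292 CPM, with 2, 3 and 3 at 0, among them Atoh1 and Slc26a5 in every library. The 7 sulcus and interdental markers summed to 2159, 553 and 297 CPM, with 3, 2 and 2 at 0. The 7 cycling markers moved the other way, at 13.4, 241 and 120 CPM, with Cdk1, Cenpf, Mki67 and Ube2c at 0 in the control and none at 0 with Dox. The part of these markers in the chaperone differences was not tested. Without cells of little Malat1, Hspd1 (2.40), Hspe1 (1.91), Hspa8 (1.56), Hspa1a and Hspa1b were still called and Dnajb1 was not (adjusted p = 0.0951). The control cell that carries Hspa1a and Hspa1b had 1.71% Malat1 and stayed in, so their calls there rest on it as before.

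**Figure D1:**
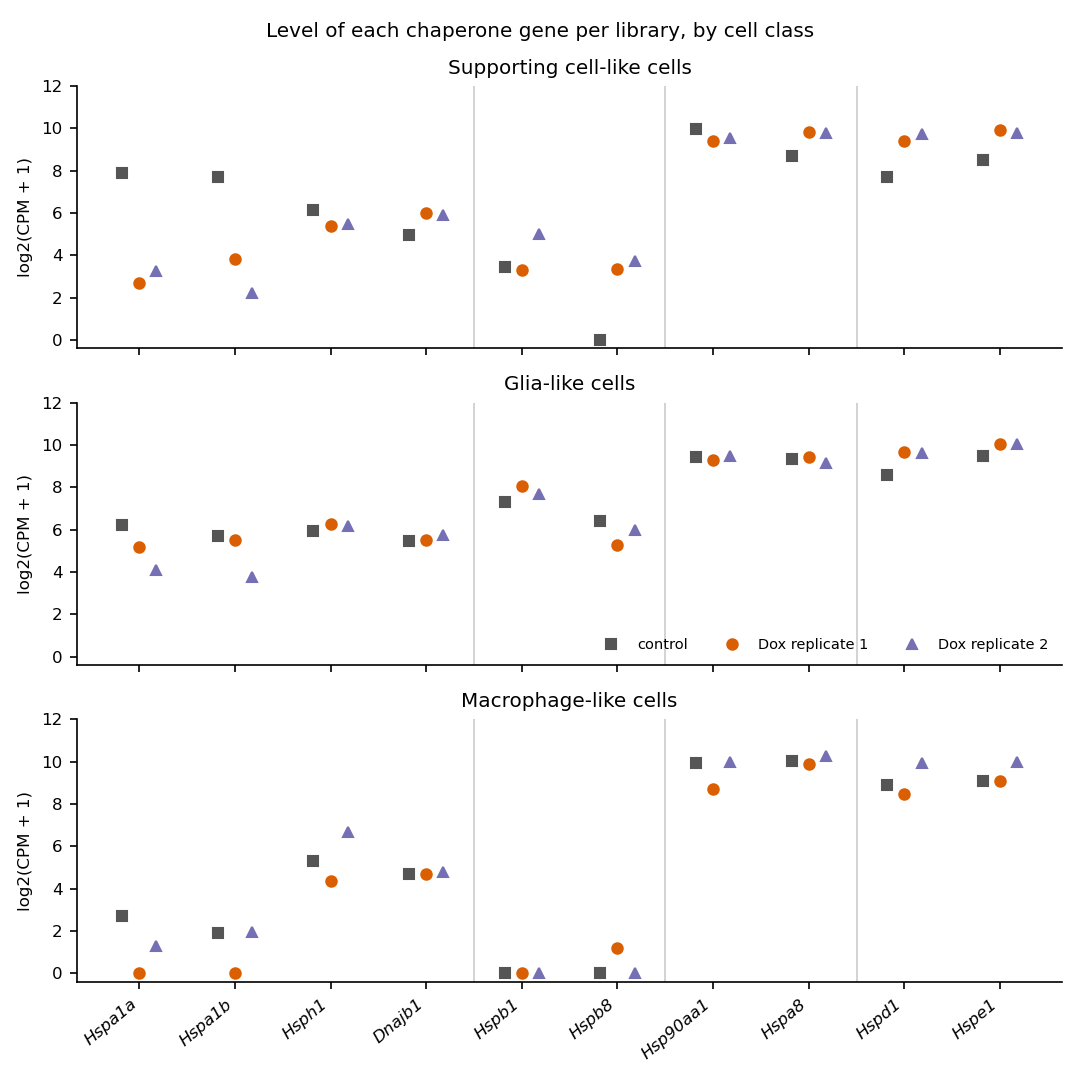
Level of each of the 10 genes as log2(CPM + 1), with CPM per total count, in 3 cell classes; each point is 1 library and grey lines part the inducible, small, abundant cytosolic and mitochondrial members. In supporting cell-like cells the Dox points of Hspd1, Hspe1 and Hspa8 lie above the control square and those of Hspa1a and Hspa1b below it.

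Glia-like cells, which carry markers of Schwann and satellite cells, showed the rise of Hspd1 but no call for any other member. Hspd1 was at 356 CPM in the control and at 901 and 818 CPM with Dox (log2 difference 1.27, SE 0.35, edgeR adjusted p = 0.00640). That is 1 of 10 members, beside 10.6% of 7620 genes called, 5.51% higher and 5.13% lower. With all shared barcodes left out, the value was 1.12 and the call was lost (adjusted p = 0.062). Hspe1 was at 656, 1201 and 1092 CPM (log2 difference 0.81, SE 0.36, edgeR adjusted p = 0.142). Both Dox libraries lay above the control for Hspe1, without passing the test.

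Hspa1a in glia-like cells was at 68.0, 39.9 and 17.0 CPM from 22, 29 and 9 UMIs (log2 difference -1.19, SE 0.45, edgeR adjusted p = 0.0717). It was called in 4 of 13 alternatives, at -1.90 with the copied barcodes kept. Hspa1b was at 46.4, 50.9 and 13.2 CPM, so its Dox libraries lay on both sides of the control. Unlike in supporting cell-like cells, Hspb1 was well detected, at 145, 297 and 217 CPM (log2 difference 0.83, edgeR adjusted p = 0.0942). Hspa8 (591, 777 and 603 CPM) and Hsp90aa1 (640, 701 and 741 CPM) were not called. The 16 glial markers summed to 6878, 2215 and 3151 CPM, with Gfra3 at 0 in each library, and their part in these values was not tested.

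In macrophage-like cells, where neither Notch1 nor Myc was called, no member was called either, and 6 of the 10 passed the filter on low counts. The count of 0 by edgeR stands beside 0 of the 6 at an unadjusted p under 0.05 and 0 by DESeq2, and beside 2.11% of 7742 genes called, 1.27% higher and 0.84% lower. Hspd1 was at 475, 372 and 1019 CPM and Hspe1 at 550, 569 and 1047 CPM. Dox replicate 2 was high for both and Dox replicate 1 lay closer to the control. A single control cell held 99 of the 171 Hspd1 UMIs of the class. Hsph1 was at 38.9, 20.6 and 106 CPM, with the control between the Dox libraries as for Hspd1. Hspa1a and Hspa1b had 3 UMIs together in the control, 0 in Dox replicate 1 and 3 in Dox replicate 2. Hspb1 was at 0 in all 3 libraries, and 0 of 23, 46 and 25 cells allows shares of up to 13.0%, 6.52% and 12%. The 16 macrophage markers summed to 24105, 26441 and 10342 CPM. This class also held RNA of neutrophil markers, at 13701, 22513 and 15115 CPM summed over 11 genes, which is above the macrophage markers in Dox replicate 2. The 6 general epithelial markers summed to 8.39, 14.6 and 490 CPM. The part of these markers in the values of this class was not tested.

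Whether the Dox difference itself varied between the 3 classes was tested over their 9 sums with the library as a block. None of the 10 members was called (edgeR quasi-likelihood test), 5 had an unadjusted p under 0.05, and 0.0838% of 10735 genes were called. Hspa1a had the smallest edgeR adjusted p (0.223), followed by Hspa1b (0.245). The Dox difference of Hspd1 was 1.00 log2 unit smaller in glia-like than in supporting cell-like cells and 1.83 smaller in macrophage-like cells (edgeR adjusted p = 0.512). The class with the most calls was thus not shown to differ from the others. With no filter on low counts, Hspa1a and Hspa1b were called, beside 1.41% of 17200 genes. Their supporting cell-like control sums rest on 1 cell, which held 61 of 71 Hspa1a and 58 of 61 Hspa1b UMIs. The macrophage-like sums held 2, 0 and 1 Hspa1a UMIs and 1, 0 and 2 Hspa1b UMIs. This test was not repeated without that cell.

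**Figure D2:**
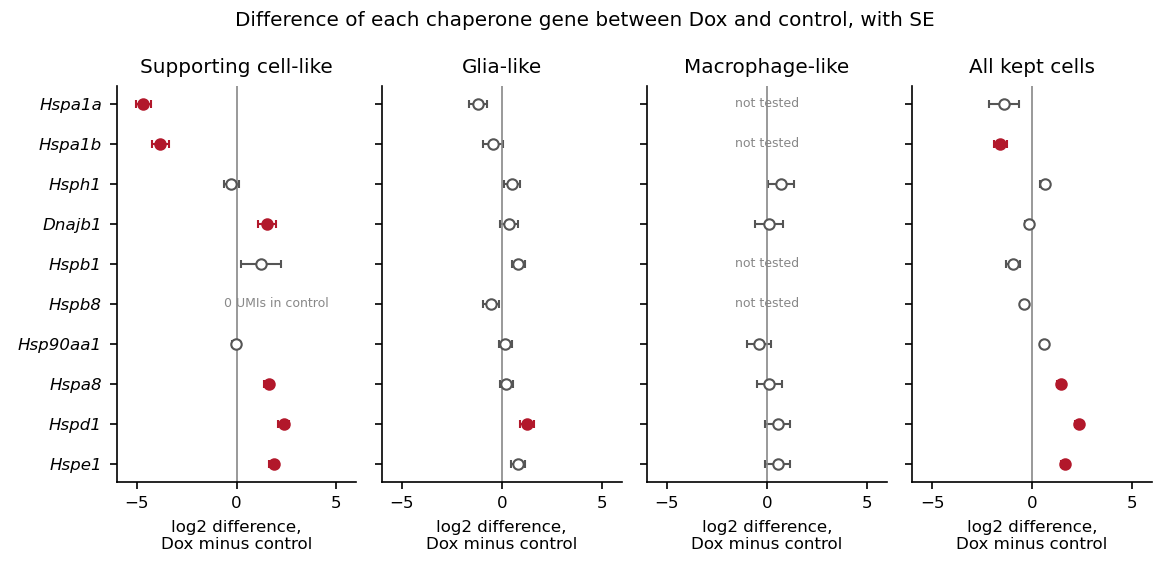
Log2 difference of each gene between Dox and control with its SE, in 3 cell classes and over all kept cells; filled red points passed an adjusted p of 0.05 and open points did not. Hspd1 was called in supporting cell-like and glia-like cells and over all cells, and no gene was called in macrophage-like cells.

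Over all kept cells, whatever their type, 3 members rose and 1 fell, beside 18.5% of 15421 genes called, 10.1% higher and 8.33% lower. Hspd1 went from 247 to 1136 and 1405 CPM (log2 difference 2.37, SE 0.20, edgeR adjusted p = 0.0174). Hspe1 went from 414 to 1194 and 1355 CPM (1.62, SE 0.15) and Hspa8 from 567 to 1403 and 1637 CPM (1.42, SE 0.16, edgeR adjusted p = 0.0197). Hspa1b was at 60.4, 15.0 and 24.9 CPM (log2 difference -1.59, SE 0.33, edgeR adjusted p = 0.0434). Hspa1a was at 69.4, 10.8 and 41.1 CPM and did not pass (log2 difference -1.41, SE 0.77, edgeR adjusted p = 0.253), and its Dox libraries lay far apart. Hspb1, at 401, 155 and 260 CPM, did not pass either (-0.95, SE 0.33, edgeR adjusted p = 0.114). Hsp90aa1 was higher in both Dox libraries, at 682, 955 and 1104 CPM, without passing (0.60, SE 0.15, edgeR adjusted p = 0.0650). It was called in 4 of 10 alternatives.

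The libraries differed in which cells they held, and a fibroblast-like cluster of 98 cells occurred in the control alone. With only the 8 clusters that had at least 10 cells in every library, a choice made after seeing the data, Hspd1 and Hspe1 were still called, at 2.01 and 1.21 (edgeR adjusted p = 0.0363 and 0.0415). Of 13893 genes in that comparison 2.07% were called, 1.27% higher and 0.792% lower. Hspa8 (1.17, adjusted p = 0.0588) and Hspa1b (-1.38, adjusted p = 0.175) missed the threshold. Counted cluster by cluster per total count, both Dox libraries lay above the control in 6 of the 8 clusters for Hspd1, Hspe1 and Hspa8 and below it in none. For Hspa1a both lay below in 4 and above in 1, and for Hsp90aa1 below in 4 and above in none. These CPM are not TMM-scaled, unlike the all-cell values in which Hsp90aa1 was higher with Dox. In supporting cell-like cells 1 cell held 127 of the 302 control UMIs of Hsp90aa1. The 4 for Hspa1a rest on few UMIs or cells. Macrophage-like cells had 2, 0 and 1 UMIs. A single cell held 61 of 71 control UMIs in supporting cell-like cells and 20 of 27 in cluster 1, like Reissner's membrane. Without the cell richest in Hspa1a in each library, cluster 1 was at 7.88, 9.76 and 3.47 CPM, so the Dox libraries lay on both sides of the control. The supporting cell-like and glia-like clusters stayed below.

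Ratios of UMI sums within a library need no scaling. For each 100 UMIs of the mitochondrial pair Hspd1 and Hspe1, all kept cells held 19.7 UMIs of Hspa1a and Hspa1b in the control and 1.11 and 2.39 with Dox. In supporting cell-like cells the ratio was 78.1 in the control and 1.14 and 0.717 with Dox, the control value again carried by 1 cell. In glia-like cells it was 11.3, 4.32 and 1.58. The balance of inducible to mitochondrial chaperone RNA was thus lower in both Dox libraries in each of these populations. Of the 780 control UMIs of Hspa1a and Hspa1b over all cells, 366 sat in the unnamed cluster 14. The fibroblast-like cluster found in the control alone held 134. In macrophage-like cells the ratio was 0.813, 0 and 0.220, from 3, 0 and 3 UMIs. The unnamed clusters 0 (0, 0.507 and 0.404) and 15 (0, 1.10 and 0) were at 0 in the control. The mitochondrial pair per 100 UMIs of Hspa8 and Hsp90aa1 stood at 52.9 in the control and at 98.8 and 101 with Dox over all cells. It was also higher with Dox in supporting cell-like cells (39.7, 104 and 106), glia-like cells (82.2, 142 and 142) and macrophage-like cells (50.9, 66.3 and 89.1). These ratios are given without a test.

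Across cell types the members fell into those found nearly everywhere and those found in few places. Over the 30 sums of cluster and library with at least 20 cells, Hspa8 ranged from 416 to 1939 CPM (median 1297, per total count) and Hspd1 from 208 to 1717 CPM (median 991). Hspe1 ranged from 337 to 1736 CPM. For each of these 3 genes the lowest of the 30 sums came from control cells. Hspd1 reached 1717 CPM in cluster 6 of Dox replicate 2, whose leading genes include Mki67, a marker of cycling cells, and 1668 CPM in the cycling cluster of the same library. Neither cluster had a control cell, so neither has a Dox difference.

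The small heat shock genes Hspb1 and Hspb8 differed widely between cell types. Among the 5 named clusters with at least 10 cells in every library, Hspb1 was highest in Reissner's membrane-like epithelium, marked by Vmo1, Otx2 and Slc26a7, at 1640 CPM in the control and 766 and 699 CPM with Dox. The labels state that part of Reissner's membrane was taken off before culture. Glia-like cells came next (158, 265 and 208 CPM), followed by sulcus-like epithelium (68.4, 144 and 72.2 CPM). Supporting cell-like cells (10.1, 8.77 and 31.1 CPM) and macrophage-like cells (0 in each) were at the bottom. Neighbours in this order did not overlap over their 3 libraries. Hspb8 was also highest in the Reissner's membrane-like cluster, at 128, 119 and 113 CPM. It was at 0, 9.23 and 12.4 CPM in supporting cell-like cells, and 1 UMI was seen in all macrophage-like cells.

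**Figure D3:**
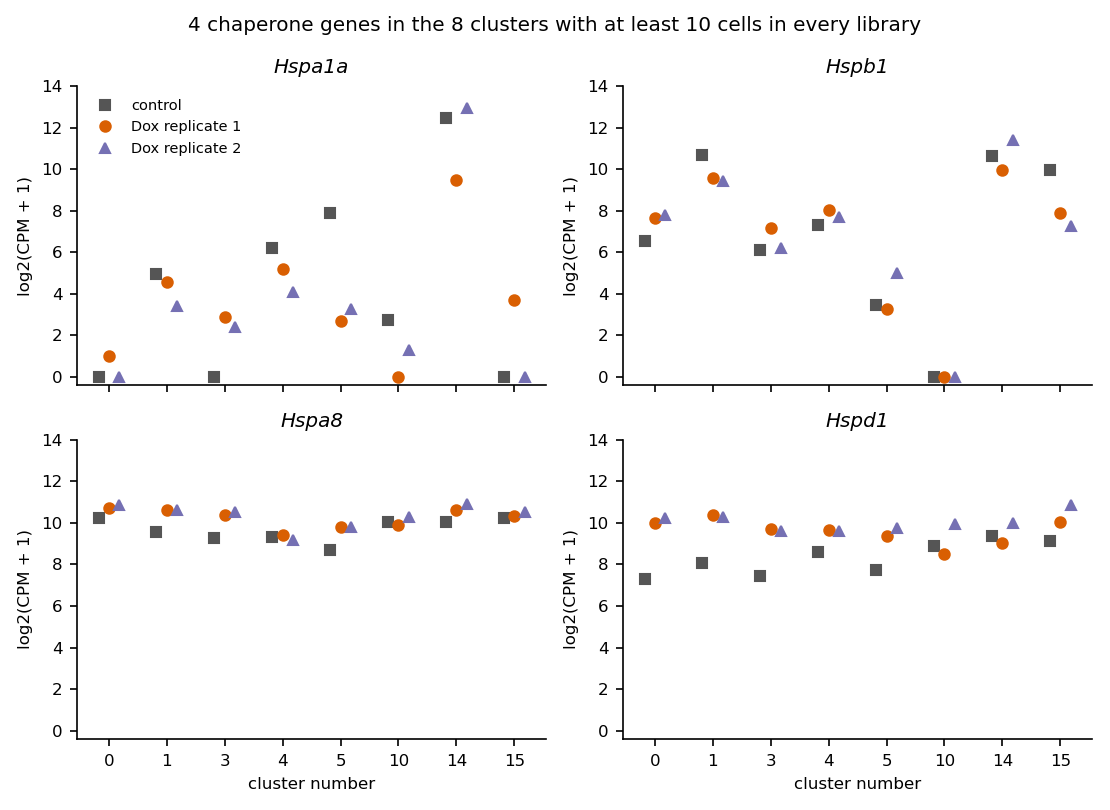
Levels of Hspa1a, Hspb1, Hspa8 and Hspd1 as log2(CPM + 1) in the 8 clusters with at least 10 cells in every library; each point is 1 library. Clusters 1, 3, 4, 5 and 10 are Reissner's membrane-like, sulcus-like, glia-like, supporting cell-like and macrophage-like, and clusters 0, 14 and 15 are unnamed; Hspa1a peaks in cluster 14 and Hspb1 is at 0 in cluster 10.

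Most RNA of the inducible HSP70 genes sat in few cells. The 10 richest cells held 70.8%, 45.7% and 84.5% of a library's Hspa1a and Hspa1b UMIs (control, Dox replicate 1 and Dox replicate 2). For Hspd1 the 10 richest cells held 31.9%, 13.5% and 8.74% of its UMIs. A single cell of Dox replicate 2 carried 1008 of 2021 Hspa1a and Hspa1b UMIs, which was 7.88% of its RNA. A single control cell carried 221 of 780. Both belong to cluster 14, as did 5 of the 10 richest cells of the control, 4 of Dox replicate 1 and 8 of Dox replicate 2.

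Cluster 14 is unnamed, since none of the fixed cell type markers led it. It held 11, 23 and 33 cells of low depth (median 2248 UMIs) with much of the nuclear RNA Malat1 (median 7.53%). Although the members were not used to cluster, Hspa1a and Hspa1b led it, followed by Gadd45g, a gene induced by stress and growth arrest. It held 0.605%, 0.489% and 0.432% of the UMIs of the libraries but 46.9%, 21.8% and 82.5% of those of Hspa1a and Hspa1b. Hspa1a was at 5578, 707 and 7817 CPM there, so the control lay between the Dox libraries. Hsph1 (315, 358 and 1206 CPM), Hsp90aa1 (4412, 3974 and 7838 CPM) and Hspb1 (1607, 993 and 2727 CPM) were also above their levels in the 3 classes. Hspd1 was at 662, 522 and 1004 CPM, beside 208 to 986 CPM in the classes, and Hspe1 was at 1008, 1434 and 1736 CPM. Notch1 had 0 UMIs in the control cells of this cluster and stood at 4128 and 10007 CPM with Dox. In Dox replicate 2, the 3 cells richest in Hspa1a and Hspa1b held 328, 322 and 291 Notch1 UMIs. The other cells of this cluster among the 10 richest of that library held 0, 0, 0, 135 and 0. Those among the 10 richest of Dox replicate 1 held 0, 0, 27 and 7. All were picked by their Hspa1a and Hspa1b UMIs, and no link with Notch1 was tested. Outside the cluster, Hspa1a was at 46.0, 6.75 and 4.18 CPM and Hspa1b at 33.4, 12.4 and 6.54 CPM, so both Dox libraries lay below the control. Those control values rest on 240 Hspa1a and 174 Hspa1b UMIs. The fibroblast-like cluster found in the control alone held 96 and 38 of them. A single supporting cell-like cell held 61 and 58, and 1 cell of cluster 1 held 20 and 20. What sets the cells of cluster 14 apart was not tested.

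**Figure D4:**
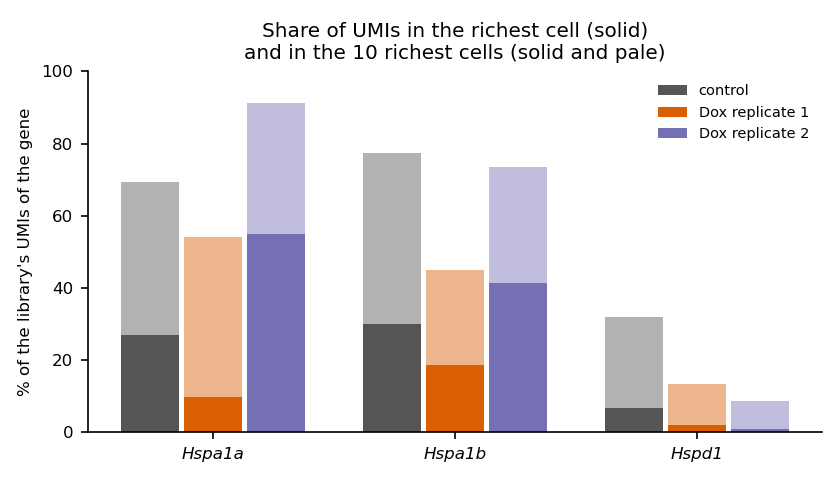
Percentage of a library's UMIs of Hspa1a, Hspa1b and Hspd1 that sat in the richest cell (solid bar) and in the 10 richest cells (top of the pale bar), per library. The richest cell of Dox replicate 2 held 55.0% of Hspa1a and 1.05% of Hspd1.

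The members grouped in how they varied over the 30 sums of cluster and library, which share libraries and depth. Pearson's r of log2(CPM + 1) was 0.92 for Hspa1a with Hspa1b, 0.91 for Hspb1 with Hspb8, 0.88 for Hspd1 with Hspe1 and 0.82 for Hsph1 with Hsp90aa1. Between the inducible and mitochondrial groups it was -0.41 for Hspa1a with Hspd1. Among 6343 genes with a mean of at least 20 CPM, the genes most like Hspd1 were Cct5 (0.93), Dkc1 (0.92), Cct2 (0.92), Ncl (0.91) and Tcp1 (0.91). Cct2, Cct5 and Tcp1 encode subunits of the cytosolic chaperonin TRiC, and Dkc1 and Ncl encode nucleolar proteins. The genes most like Hspa1a, after Hspa1b, were Atxn7l3b (0.89), Ubxn4 (0.87), Uspl1 (0.87) and Tmem60 (0.87). These are descriptions with no test.

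Other chaperone systems in supporting cell-like cells were read from fixed lists. Among all genes tested in this class, 6.32% were higher and 3.31% lower. Of 14 genes of the chaperonin TRiC and its partner prefoldin, 4 rose and none fell (median log2 difference 0.81, beside 0.03 for all genes). The 4 were all TRiC subunits: Cct2 (136, 460 and 442 CPM, log2 difference 1.73), Cct5 (70.7, 211 and 287 CPM, 1.80), Tcp1 (1.44) and Cct7 (1.16). Of 17 mitochondrial chaperones and proteases, 3 rose and none fell (median 0.68): Hspa9, the mitochondrial HSP70 (73.5, 172 and 227 CPM, 1.43), Phb2 (1.12) and Pam16 (1.06). Among 25 partners of HSP70 and HSP90, 4 rose (median 0.10), led by Hsp90ab1, the constitutive HSP90 (1945, 5089 and 4160 CPM, 1.25, edgeR adjusted p = 0.000242). The others were Fkbp5, which had 0 control UMIs, Dnajc2 (1.82) and Cdc37 (1.52).

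The further heat shock response list did not move as a block: of 22 genes tested, Mt1 (2.73) and Mt2 (1.68) rose and Ubb fell by 1.37, with a median of 0.02. Mt1 and Mt2 encode metallothioneins, which bind metal ions, and Ubb encodes ubiquitin. Of 17 chaperones of the endoplasmic reticulum none rose and Dnajb9 fell by 1.38 (150, 62.1 and 49.9 CPM, median -0.08). Beside the 6.32% of all genes higher and 3.31% lower in this class, counts of 1 or 2 genes per list are near those shares. Of 29 immediate early and dissociation genes 1 rose and 5 fell (median -0.27), namely Gadd45g (-2.83), Klf6 (-1.02), Jun (-0.71), Dusp1 (-1.23) and Btg1 (-0.80). The gene that rose was Mcl1 (1.00), which protects cells from apoptosis. Some of these genes respond to tissue dissociation, as Hspa1a and Hspa1b do, and with a lone control library handling and Dox cannot be told apart.

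In glia-like cells the TRiC and prefoldin list had 2 of 14 that rose (Cct2, 1.29, and Pfdn1, 1.18; median 0.47), and the mitochondrial list had 1 of 16, Hspa9 (0.93). Over all genes tested in this class 5.51% rose, so 1 of 16 is near that share. Cryab, a small heat shock gene and lens crystallin, fell there by 1.35 on the log2 scale, from 7308 to 2445 and 3304 CPM. In macrophage-like cells 0 genes of the 6 lists were called. Over all cells 7 of 14 TRiC and prefoldin genes and 7 of 17 mitochondrial genes rose and none fell, while 0 of 17 chaperones of the endoplasmic reticulum rose and 3 fell (Dnajc3, Dnajb9 and Calr). Of 25 partners of HSP70 and HSP90, 7 rose and 1 fell. Of 25 genes of the heat shock response list, 2 rose and 6 fell (median -0.39). Of 31 immediate early and dissociation genes, 1 rose and 7 fell (median -0.38). Among all genes tested over all cells, 10.1% were higher and 8.33% lower.

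Total count scaling moved the median of all genes by -0.49 in supporting cell-like cells, -0.24 in glia-like cells and -0.29 over all cells, and turned the split of calls in supporting cell-like cells from 564 higher and 295 lower to 467 higher and 1456 lower. Hspd1, Hspe1 and Hspa8 rose in supporting cell-like cells under that scaling too, Dnajb1 was lost (1.03, adjusted p = 0.111) and Hsp90aa1 was called lower (-0.52, adjusted p = 0.0444). Under it the share of calls that were higher fell from 51.8% to 30.7% in glia-like cells and from 54.9% to 30.8% over all cells, and with DESeq2 size factors it went from 60.1% to 49.2% in macrophage-like cells.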

How the data were processed

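UMI counts per gene and barcode were used as the authors deposited them. The submitters' processing notes name Cell Ranger 5.0, STAR, Seurat 3.2.2 and the build mm10 (GRCm38), and the matrix headers give version 3.1.0. Barcodes passed with 200 or more genes and no more than 20% mitochondrial UMIs. An entry of a shared barcode with under 10% of its largest entry's UMIs was left out as a copy, a choice made after seeing the files. Scrublet marked 2, 1 and 0 doublets, was taken not to have worked, and removed none. Cells were clustered with scanpy 1.11.5 (2000 variable genes, 30 components, 15 neighbours, Leiden resolution 1) without the members and the 6 wider lists. A cluster was named where at least 3 fixed markers of a type were among its 25 leading genes.

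UMI counts were summed per library and class and tested with edgeR 4.0.16 (quasi-likelihood, TMM, filterByExpr, Benjamini-Hochberg over all genes tested). With 1 control and 2 Dox libraries the fit has 1 residual degree of freedom, the control library is taken to vary as the Dox libraries do, and p-values measure the spread between libraries, which may be technical. CPM in these tests is TMM-scaled, and CPM per cluster is per total count. Intervals are 95% Clopper-Pearson intervals, limits beside a share of 0 are 3 cells of the total, and both cover counting error only. Steps were tested on simulated counts. Alternatives included DESeq2 1.42.0, other scalings, cell filters, resolutions and thinning to 1000 UMIs.

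The rule named all 10 members, up to 4 genes per wider list by smallest p, Notch1 and Myc, and the 5 genes most like Hspa1a and like Hspd1. Btg1, Mcl1 and other genes were named after their values were seen. The members and lists were chosen with earlier results of these data known.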

Additional observations from a re-analysis of the deposited data

Results flagged for a closer look

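Barcodes that failed the cell filter enter no comparison above. In those 149, 152 and 98 barcodes, 4 members had at least 10 UMIs in both Dox libraries, and all 4 lay above the upper counting limit of the control there. So did 63.5% of the 940 genes with as many UMIs. Hspd1 was at 22.7 CPM in the control and at 256.9 and 256.6 CPM with Dox, and Hspe1 at 37.8, 152 and 125 CPM. Hspa8 was at 106, 431 and 308 CPM, and Hsp90aa1 at 189, 568 and 293 CPM. The control values rest on 3, 5, 14 and 25 UMIs, and the limits cover counting error only.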

How the results depend on the processing

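No paired analysis was possible because only the Dox libraries carry replicate numbers. A single cell decides Hspa1a and Hspa1b in supporting cell-like cells. There, 6 members were called, beside 9.63% of all genes. The count was 1 with cells thinned to 1000 UMIs (17.7% of genes) and 3 without the cell richest in Hspa1a and Hspa1b (5.55%). In glia-like cells 1 was called, beside 10.6% of all genes. It was 2 with total count scaling, the strict cell filter, thinning, members and wider lists used to cluster, or copied barcodes kept, 3 at resolution 2, and 0 with all shared barcodes left out. Over all cells 4 were called, beside 18.5% of all genes. That became 8 with no filter on low counts and 2 with clusters of at least 10 cells in every library (2.07% of genes). In the test between classes 0 (0.0838% of genes) became 2 with no filter (1.41%). Where no share of all genes stands beside a count, the count is not a result about the members. Thinned ratios of Hspa1a and Hspa1b per 100 Hspd1 and Hspe1 UMIs were 77.1, 6.79 and 7.99. The sign of uncalled members turned for Hsp90aa1 in supporting cell-like cells (0.0090 with no filter, 0.65 thinned, 0.44 with copies kept, 0.49 with shared barcodes out, 0.014 without the richest cell), in glia-like cells (-0.068, total count) and in macrophage-like cells (0.38 without cells of little Malat1, 0.52 with shared barcodes out). It also turned for Hspa8 (-0.020, total count) and Hspb8 (1.58, resolution 2) in glia-like cells and for Dnajb1 (0.60) and Hspb8 (0.40) in clusters of at least 10 cells per library. In all of these the cause was not tested. Of the values of single members, 459 were marked as the same under an alternative, 16 gained and 13 lost a call, 12 turned sign and 8 moved. For a tested alternative, the same means only that sign and call status held, and the size could change. Hspb1 in supporting cell-like cells, at 1.23 and at 2.70 without the richest cell, counted as the same. Where a Dox library was left out, moved means a change of at least the SD between the 2 Dox libraries. Leaving out a Dox library leaves no test; Hspa1b in supporting cell-like cells then stood at -5.24 (without Dox replicate 1) and -3.40 (without Dox replicate 2), Hspa1a at -4.28 and -4.88, and Hspd1 at 2.50 and 2.21. Clustering each library alone left 0 supporting cell-like cells in Dox replicate 2, so it gave no value there.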
